A study of Mus musculus with 13 samples.

Results

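The genes described here belong to the motile cilia programme: 34 listed symbols covering its transcription factors, the parts of the ciliary shaft and the factors that assemble it. They were given as a list of names, and no measured value enters the rule. A gene was taken as measured where a probe set of the array was annotated to its symbol alone, and the probe set with the highest mean signal stood for it. By this rule 33 of the 34 genes had a probe set, out of 18193 genes on the array, and the expression of Mcidas, a coactivator that starts multiciliation, was not analysed here.

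A motile cilium is a whip-like projection built on a ring of doublet microtubules, the axoneme, whose dynein arms slide neighbouring doublets past each other while radial spokes and a central apparatus set the beat. Its genes are switched on as a group by Foxj1 and by factors of the RFX family, and many of them serve no other organelle. In the brain, motile cilia are carried by the ependymal cells that line the ventricles and by the choroid plexus epithelium. Mouse ependymal cells arise from radial glia before birth and grow most of their cilia after it, whereas the choroid plexus is ciliated in the embryo.

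RNA of whole mouse brains, taken at embryonic day 18.5, was hybridised to Affymetrix arrays, with each array holding 1 embryo. There were 6 wild-type embryos and 7 Meg3 knock-out embryos, from 5 litters. Meg3 is a long non-coding RNA expressed from the maternal chromosome of an imprinted cluster. Strain, sex, the form of the deletion and the parent that passed it on were not given in the labels used here. The series' design text names the embryos as biological replicates. Embryos are called below by genotype and replicate number, so wild-type 1, wild-type 2 and knock-out 2 are the 3 embryos of litter 219. The values are signals on the linear scale of the deposited table.

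As a check of the labels, the Meg3 signal was 3109 to 6251 in the wild-type arrays and 264 to 589 in the knock-out arrays, a log2 difference of -3.64. Over all genes bright enough to test, 3 passed the genotype test, or 0.0232%. Wild-type 1 stood apart from most other arrays: it held the lowest value of the 13 arrays for 25% of all tested genes. Its median correlation with the others was the lowest, at 0.94. Wild-type 2 was close to it, lowest for 23.6% of all tested genes and with a median correlation of 0.955. Among the 25 tested motile cilia genes, wild-type 1 was lowest for 15 and wild-type 2 for 2. The ratio of 3′ to 5′ Actb signal, a measure of RNA integrity, was 1.34 in wild-type 1. It was 2.92 in wild-type 2, 1.81 in knock-out 1 and 1.32 to 1.5 in all other arrays. Results on the motile cilia genes that turn without wild-type 1 are given below with and without it.

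Of the 33 measured genes, 25 passed the filter on dim probe sets, a mean signal of about 56.9, and 8 did not. The 8 dim genes were Hydin at a mean signal of 49.8, Rfx2 at 40.1, Ccdc113 at 30.1, Spag16 at 22.6, Dnah11 at 19.6, Ccdc114 at 17.9, Spag17 at 7.89 and Spag6 at 2.99. For a background level, 13 genes of tissues that a brain does not hold had mean signals of 4.95 to 152 with a median of 21.4, so a signal in that range is no evidence of expression. Of the 25 tested motile cilia genes, 10 also lay under 152, Tekt4, Ccno, Zmynd10, Stk33 and Dnali1 among them. Hydin, Spag6, Spag16 and Spag17 encode proteins of the central apparatus, and all 4 of them were among the dim genes. Signals of different probe sets are not a measure of relative transcript number, and levels are therefore compared between arrays and not between genes. In a whole brain, fewer cells of a type and less RNA per cell cannot be told apart.

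**Figure D1:**
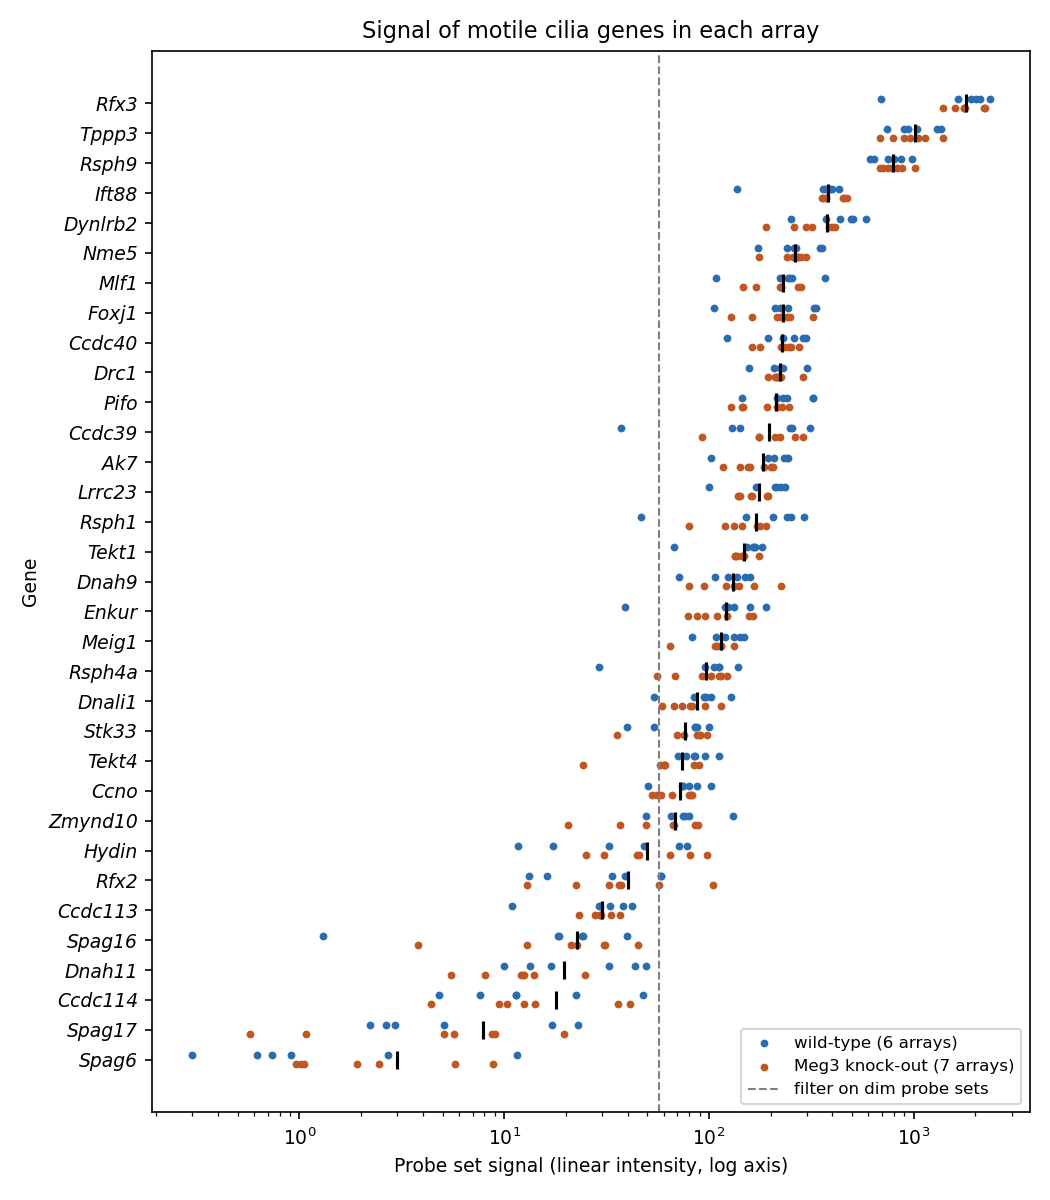
Signal of each measured motile cilia gene in the 13 arrays, on a log axis, with genes ordered by mean signal for display only; each point is 1 embryo, coloured by genotype, black bars are means over all arrays and the dashed line is the filter on dim probe sets. Wild-type 1 lies at the low end of many rows, for example Rfx3 at 690 where the other 12 arrays lie between 1393 and 2352.

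The ependymal part of the label was checked against 11 further ependymal markers, which are not among the 34 genes. Of these, 10 passed the filter. Fam183b, found in ciliated cells, had a mean signal of 157, the calcium-binding protein S100b 149 and the water channel Aqp4 717. Ccdc153 was near the filter at 69.2, and Tmem212, a membrane protein of ependymal cells, was below it at 52.1. The markers with bright signals, Cd24a at 19475, Vim at 6962 and Nfix at 7321, are also expressed by radial glia or young neurons. The bright markers thus do not single out ependymal cells. Fam183b, S100b, Ccdc153, Tmem212 and Rarres2, at 111, lie near or within the background range. Aqp4, Sox9 at 409 and Mia at 341 lie above that range, and whether they single out ependymal cells was not tested. The genes are called motile cilia genes here.

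Among the regulators, Foxj1, the forkhead factor that drives motile ciliogenesis, had a signal of 106 to 333 with a median of 233 in wild-type arrays and 128 to 322 with a median of 225 in knock-out arrays. The ranges overlapped almost wholly, and the lowest wild-type value was that of wild-type 2. The log2 difference, knock-out minus wild-type, was -0.08 ± 0.24 (SE; n = 6 and 7; limma adjusted p = 1.00), with a 95% interval of -0.59 to 0.42. Rfx3, an RFX factor needed for ciliary growth, was at 690 to 2352 with a median of 1954 in wild-type arrays and at 1393 to 2214 with a median of 1767 in knock-out arrays. Its difference was 0.11 ± 0.23 on the log2 scale, and -0.15 without wild-type 1, so that its sign rested on that array. A dimmer second Rfx3 probe set gave 0.09.

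Rfx2, the other RFX factor of the list, was below the filter, with 13.2 to 58.4 and a median of 36.2 in wild-type arrays and 12.9 to 105 and a median of 36.3 in knock-out arrays. Its 4 probe sets, none of them above the filter, gave log2 differences of -0.09 to 0.34. Ccno, a cyclin-like protein needed to make the many basal bodies of a multiciliated cell, was at 50.1 to 102 with a median of 77.3 in wild-type arrays and at 52.5 to 82.3 with a median of 65.6 in knock-out arrays. Its difference was -0.16 ± 0.14 (limma adjusted p = 1.00), and the groups overlapped. None of the measured regulators differed between the genotypes beyond the spread of the embryos.

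RFX factors bind a motif called the X-box, and the genes' promoters were read for it because 2 RFX factors are on the list. The X-box was searched as GTNNCC, 3 free bases and GNNAC, its RFX half-site as GTTGCC and a forkhead motif as TGTTTAC, on both strands of the 250 bases before each start in the RefSeq promoter table of GRCm38.p6. An X-box can contain the half-site, as it does in Spag16, Pifo, Hydin, Tekt1 and Ccno. Of the 34 genes, 28 were matched in the table, and Foxj1, Rsph1, Rsph4a, Tppp3, Nme5 and Stk33 were not. An X-box match was present in 7 of the 28 genes (25%), against 4.39% of the 27025 genes of the table. The half-site was present in 14 of 28, against 11.8%, and the forkhead motif in 2 (7.14%), Mlf1 and Ak7, against 3.54%. In the list of other motile cilia genes the X-box share was 21.1% and the half-site share 28.2%. In the list of intraflagellar transport and primary cilia genes, the shares were 12.2% and 19.5%. In the list for multiciliation and basal bodies both were 11.5%. The half-site was also present in 2 of 7 neuronal, 4 of 17 choroid plexus and 2 of 10 radial glia genes. It was present in 1 of 9 genes of dividing cells and 0 of 7 olfactory and airway genes. An X-box match was present in 2 of 17 choroid plexus (11.8%) and 1 of 10 radial glia genes (10%). It was present in 0 of 7 ependymal markers, 0 of 7 neuronal genes and 0 of 9 genes of dividing cells. The half-site share was thus not high in ciliary lists alone, and X-box shares above 4.39% were not limited to them either. Of the 7 genes with an X-box match, Hydin, Spag16, Ccdc114 and Tekt1 had higher means in knock-out brains, by 0.33, 0.11, 0.04 and 0.01 (log2). Pifo, Tekt4 and Ccno had lower ones. A match says only that these letters lie there, and binding was not measured.

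Stretches around 6 of these matches are printed because they belong to genes that the expression results below turn on. Pifo, Tekt4, Dynlrb2 and Lrrc23 had lower means in knock-out brains, and Ccno is a regulator. Tekt1 had the closest correlation with Rfx3 over all 13 arrays, 0.92, or 0.63 without wild-type 1. The sequences are RefSeq's, in GRCm38.p6, each 5′ to 3′ on the strand of its gene, with the match in capitals: an X-box for the first 4 and the half-site for Dynlrb2 and Lrrc23. The stretches lie at chr3:106001498-106001557 on the minus strand for Pifo, chr17:25471390-25471483 on the plus strand for Tekt4, chr11:72361883-72361937 on the minus strand for Tekt1 and chr13:112987552-112987636 on the plus strand for Ccno. That of Dynlrb2 lies at chr8:116504924-116505009 on the plus strand and that of Lrrc23 at chr6:124779728-124779806 on the minus strand. All lie upstream of the gene's start, outside the transcript.
Pifo: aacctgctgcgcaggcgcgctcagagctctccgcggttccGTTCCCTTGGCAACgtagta
Tekt4: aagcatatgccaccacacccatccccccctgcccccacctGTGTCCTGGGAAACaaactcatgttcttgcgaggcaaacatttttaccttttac
Tekt1: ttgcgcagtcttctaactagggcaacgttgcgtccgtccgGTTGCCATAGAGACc
Ccno: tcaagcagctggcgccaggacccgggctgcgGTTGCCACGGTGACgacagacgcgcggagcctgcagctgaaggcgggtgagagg
Dynlrb2: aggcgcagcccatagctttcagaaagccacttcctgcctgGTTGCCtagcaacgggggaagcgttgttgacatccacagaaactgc
Lrrc23: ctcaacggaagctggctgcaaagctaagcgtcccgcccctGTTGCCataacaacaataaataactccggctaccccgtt
The Tekt1 match ended 1 base before the start and the Pifo match 6 bases before it, the Dynlrb2 half-site 45 and the Lrrc23 half-site 33 bases before it. The Tekt4 match lay farther out, at 146 bases, and the Ccno match at 205 bases.

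No motile cilia gene passed the genotype test: 0 of 25 had an adjusted p under 0.05 (limma, Benjamini-Hochberg over all tested genes), where 0.0232% of all genes did. At an unadjusted p under 0.05, 1 of 25 was lower in knock-out brains, Tekt4, against 0.255% of all genes, and ordinary least squares also gave 1 of 25, against 0.341% of all genes. Means of log2(signal + 16), the scale of the test and of all counts of lower and higher means here, were lower in knock-out brains for 16 of 25 genes, against 34.6% of all genes. On the linear scale 19 of 25 means were lower. The median log2 difference was -0.07 over the 25 genes and 0.04 over all genes. In no motile cilia gene were the values of the groups without overlap, which held for 10 of all genes (0.0774%).

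These counts moved with wild-type 1. Without that array, singled out after it was seen to stand apart, 23 of 25 genes had lower means in knock-out brains, against 42.3% of all genes, and the median difference was -0.19 against 0.03. At an unadjusted p under 0.05, 6 of 25 were then lower, against 0.542% of all genes: Tekt4, Dynlrb2, Pifo, Ak7, Lrrc23 and Rsph1. Wild-type 1 was lower than every other wild-type array in 20 of the 25 genes. Leaving it out raised their wild-type means by construction, so the shares over all genes are no like comparison. None of the 25 had an adjusted p under 0.05 by limma without wild-type 1 either. The lowest adjusted p of any of these genes was 0.963 over the alternatives with 1 probe set per gene, and 0.939 in a fit of all probe sets.

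**Figure D2:**
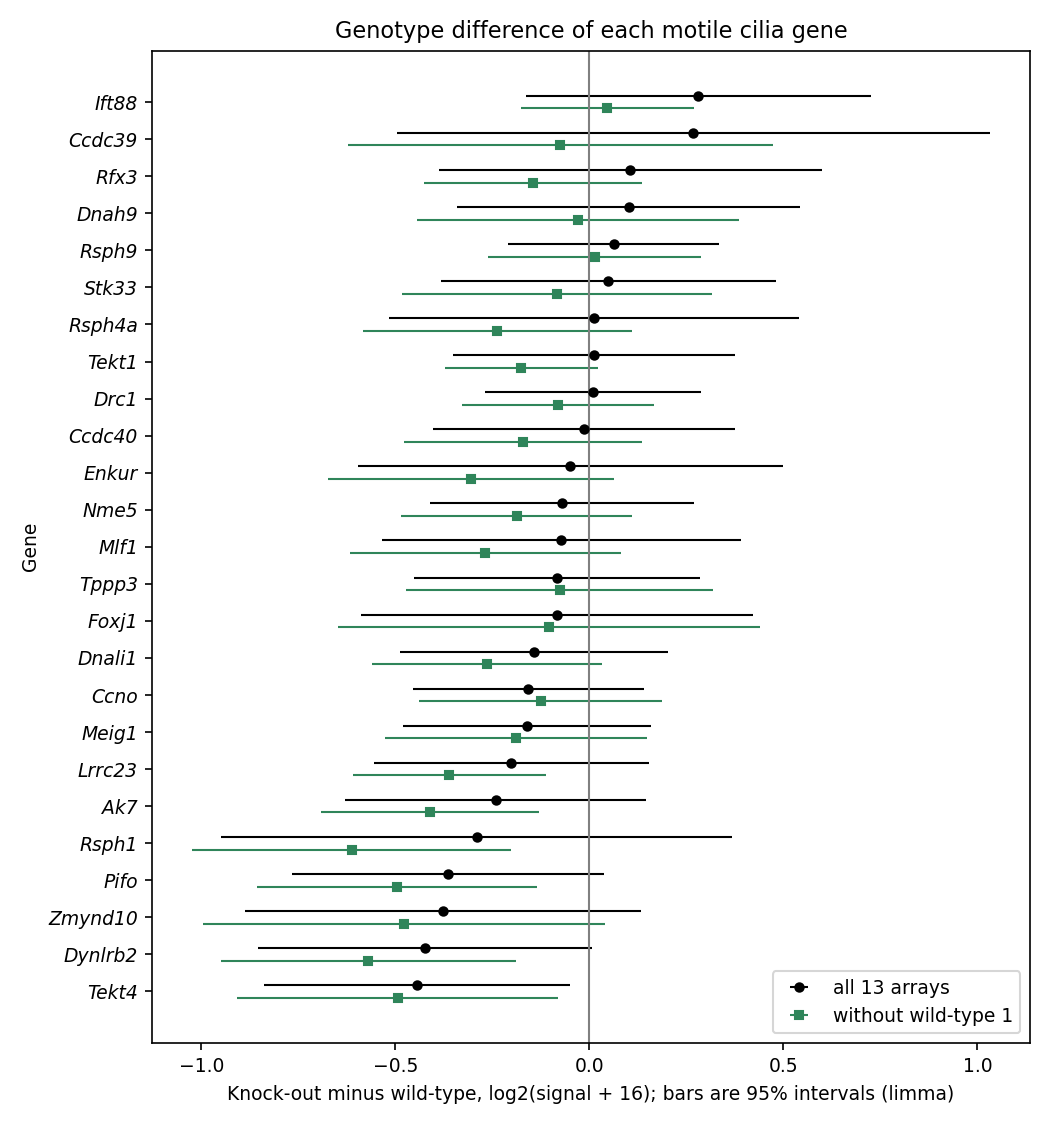
Log2 difference of each tested motile cilia gene, knock-out minus wild-type, with its 95% interval from limma, over all 13 arrays (black circles) and without wild-type 1 (green squares). Over all arrays 16 of 25 points lie below 0 and without wild-type 1 23 of 25 do, with the Tekt4 interval below 0 in both.

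Tekt4 encodes a tektin, a filament protein inside the doublet microtubules. Its signal was 70.6 to 111 with a median of 85.2 in wild-type arrays and 24.2 to 89.0 with a median of 60.6 in knock-out arrays. Knock-out 1, knock-out 2, knock-out 3, knock-out 5 and knock-out 6 lay below all wild-type values, and knock-out 4 and knock-out 7 lay among them. The difference was -0.45 ± 0.19 on the log2 scale (limma p = 0.029, adjusted p = 1.00), and the two-sided exact permutation test on single values gave p = 0.0239, unadjusted. Without wild-type 1 it was -0.49. Its mean signal, 74.0, lies within the range of the background genes. The within-litter differences were -0.29, -0.54 and -0.47 in litters 219, 238 and 250, and 0.05 in litter 262.

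Dynlrb2, a light chain of the dynein motor that runs along cilia, was at 250 to 587 with a median of 464 in wild-type arrays and at 190 to 414 with a median of 317 in knock-out arrays. Its 2 lowest values were those of knock-out 2 and wild-type 1, both of litter 219. The difference was -0.42 ± 0.20 (limma p = 0.053, adjusted p = 1.00; exact permutation p = 0.0822) and -0.57 without wild-type 1. It was lower in all 4 litters that held both genotypes, by values from -0.07 in litter 250 to -0.86 in litter 219.

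Pifo, a protein active at the base of cilia as they are taken down, was at 144 to 322 with a median of 235 in wild-type arrays and at 128 to 245 with a median of 193 in knock-out arrays. The difference was -0.36 ± 0.19 (limma p = 0.073, adjusted p = 1.00; exact permutation p = 0.111), and -0.50 without wild-type 1. Like Dynlrb2 it was lower in all 4 litters, and wild-type 1 was again its lowest wild-type value. The groups overlapped in both genes.

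Among the radial spoke genes, all except Rsph9 had a clearly low value in wild-type 1. Rsph1, a spoke head protein named here after its values were seen, was at 46.7 to 291 with a median of 222 in wild-type arrays and at 79.6 to 191 with a median of 145 in knock-out arrays. Its wild-type value of 46.7 was that of wild-type 1, and the next lowest wild-type value was 152. The difference was -0.29 ± 0.31 (adjusted p = 1.00 by limma) over all arrays and -0.61 ± 0.19 without wild-type 1. Lrrc23, a leucine-rich repeat protein of the spokes, was at 100 to 236 with a median of 212 in wild-type arrays and at 139 to 194 with a median of 160 in knock-out arrays. Its difference was -0.20 ± 0.17 over all arrays and -0.36 ± 0.12 without wild-type 1. Rsph4a, another spoke head protein, differed by 0.01 over all arrays and by -0.24 without that array. Rsph9, also of the spoke head, had 614 to 975 with a median of 775 in wild-type arrays and 685 to 1012 with a median of 780 in knock-out arrays. Its difference was 0.06 ± 0.13 and 0.01 without wild-type 1, the smallest of the 25 without that array.

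No gene of the dynein arms or of the structures that place them had an adjusted p under 0.05 by limma. Dnah9, a heavy chain of the outer arm, differed by 0.10 ± 0.21, or -0.03 without wild-type 1. Dnali1, a light chain of the inner arm, differed by -0.14 ± 0.16, or -0.26 without it. Ccdc39 and Ccdc40, which together form the ruler that spaces the arms, differed by 0.27 ± 0.36 and -0.01 ± 0.18, and by -0.08 and -0.17 without wild-type 1, on which the sign of Ccdc39 rested. Drc1, of the nexin links between doublets, differed by 0.01 ± 0.13, or -0.08 without that array. Zmynd10, a factor that assembles dynein arms in the cytoplasm, was at 49.3 to 130 with a median of 75.4 in wild-type arrays and at 20.5 to 88.7 with a median of 66.7 in knock-out arrays. Its difference was -0.38 ± 0.24 (adjusted p = 1.00 by limma; exact permutation p = 0.2) and turned to 0.03 without litter 238, which holds both its highest value, in wild-type 3, and its lowest, in knock-out 4. The dim outer arm gene Dnah11 had 9.99 to 49.0 in wild-type arrays and 5.5 to 24.8 in knock-out arrays. Its difference in the fit without a filter was -0.54 ± 0.22 (limma p = 0.029, adjusted p = 1.00; exact permutation p = 0.0507), at signals within the background range given above. The other 7 dim genes differed by -0.08 to 0.33 in that fit.

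Ak7, an adenylate kinase of motile cilia, was at 102 to 243 with a median of 220 in wild-type arrays and at 117 to 205 with a median of 159 in knock-out arrays. Wild-type 1 was the lowest of all arrays, and the groups overlapped. Its difference was -0.24 ± 0.18 (adjusted p = 1.00 by limma) and -0.41 ± 0.13 without wild-type 1. The remaining genes of this kind differed little over all arrays: Tekt1 by 0.01, Enkur, a protein inside the doublets, by -0.05, Meig1, known from sperm formation, by -0.16, Mlf1 by -0.07, the nucleoside diphosphate kinase homologue Nme5 by -0.07 and the kinase Stk33 by 0.05. Without wild-type 1 the values, in the same order, were -0.18, -0.31, -0.19, -0.27, -0.19 and -0.08. Tppp3, which promotes tubulin assembly, was at 739 to 1360 with a median of 987 in wild-type arrays and at 685 to 1383 with a median of 958 in knock-out arrays, a difference of -0.08 ± 0.17.

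Ift88 carries cargo into all cilia, motile or not, as part of the intraflagellar transport train. It had 137 to 433 with a median of 379 in wild-type arrays and 355 to 472 with a median of 373 in knock-out arrays. Wild-type 1, at 137, was the sole array under 355. The difference of 0.28 ± 0.21 (adjusted p = 1.00 by limma; exact permutation p = 0.237) became 0.05 ± 0.10 without it. Ift88 was the only gene of the 25 with a higher mean in knock-out brains under every alternative listed in the methods, and 10 genes had a lower mean under each alternative in which they were tested. The filter at the 60th percentile tested 11 of the 25.

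**Figure D3:**
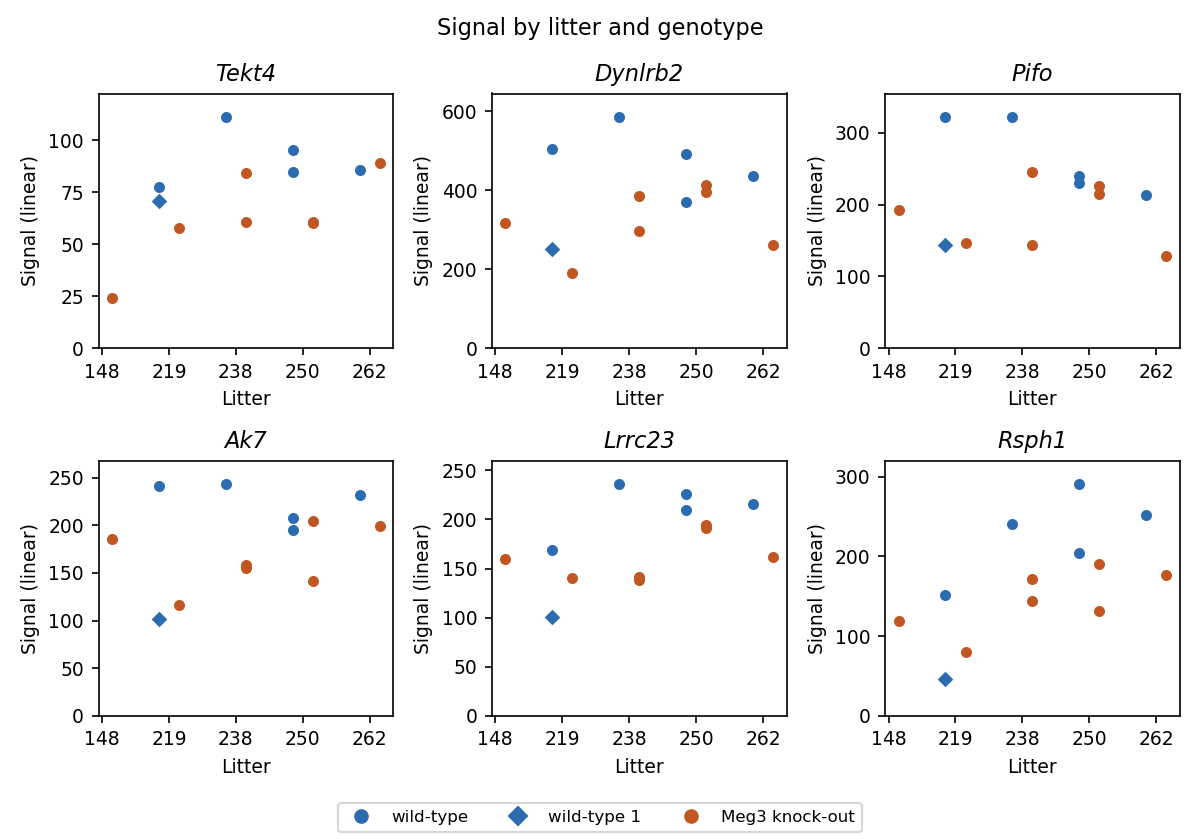
Signal on a linear axis from 0 of Tekt4, Dynlrb2, Pifo, Ak7, Lrrc23 and Rsph1, the 6 genes named above, by litter; each point is 1 embryo, blue for wild-type and orange for Meg3 knock-out, with wild-type 1 as a diamond. In Rsph1 the knock-out points of a litter lie below its wild-type points in litters 238, 250 and 262, and wild-type 1, at 46.7, lies lowest of all.

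Within litters the motile cilia genes had lower means in knock-out embryos for 22, 20, 16 and 13 of 25 genes in litters 238, 262, 250 and 219. The median differences were -0.32, -0.23, -0.10 and -0.04, where those over all genes were -0.04, -0.03, 0.03 and 0.16. In litter 219 without wild-type 1, 19 of 25 were lower with a median of -0.25. Each litter had 1 or 2 embryos of a genotype, so these are values and not tests. With litter as a fixed block, 20 of 25 means were lower, against 35.4% of all genes, and the median was -0.18; 3 were lower at an unadjusted p under 0.05, against 0.565% of all genes. With litter as a block and wild-type 1 left out as well, an alternative chosen after seeing the data, 22 were lower, against 40.8% of all genes. At an unadjusted p under 0.05, 7 were lower, against 1.18% of all genes, and 0 had an adjusted p under 0.05 by limma. Knock-out 1, alone in litter 148, adds nothing to a fit with litters.

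The counts of lower means also moved with the scaling of the arrays, while the median over the 25 genes stayed negative under each. After quantile normalisation 22 of 25 genes had lower means in knock-out brains, 8 of them at an unadjusted p under 0.05 where 2.34% of all genes were, and the median was -0.22, but 60.8% of all genes were then lower too, with a median of -0.03. With the arrays centred on their medians 21 of 25 were lower, and 64.4% of all genes. With equal trimmed means 19 of 25 were lower, and 53.2% of all genes. No gene of the list had an adjusted p under 0.05 by limma under any of these scalings.

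The motile cilia genes varied together over the 13 arrays, less so without wild-type 1. For each array the log2 signals were set against the gene's mean over all arrays, and these deviations were averaged over the 25 genes. The mean deviation was -0.67 in wild-type 1 and 0.09 to 0.32 in the other wild-type arrays, and it ran from -0.28 to 0.17 in the knock-out arrays. Knock-out 2, of the same litter as wild-type 1, was the lowest knock-out array at -0.28, and wild-type 2, the third embryo of that litter, was at 0.09. Wild-type 3, at 0.32, held the highest value of the 13 arrays in 9 of 25 genes.

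**Figure D4:**
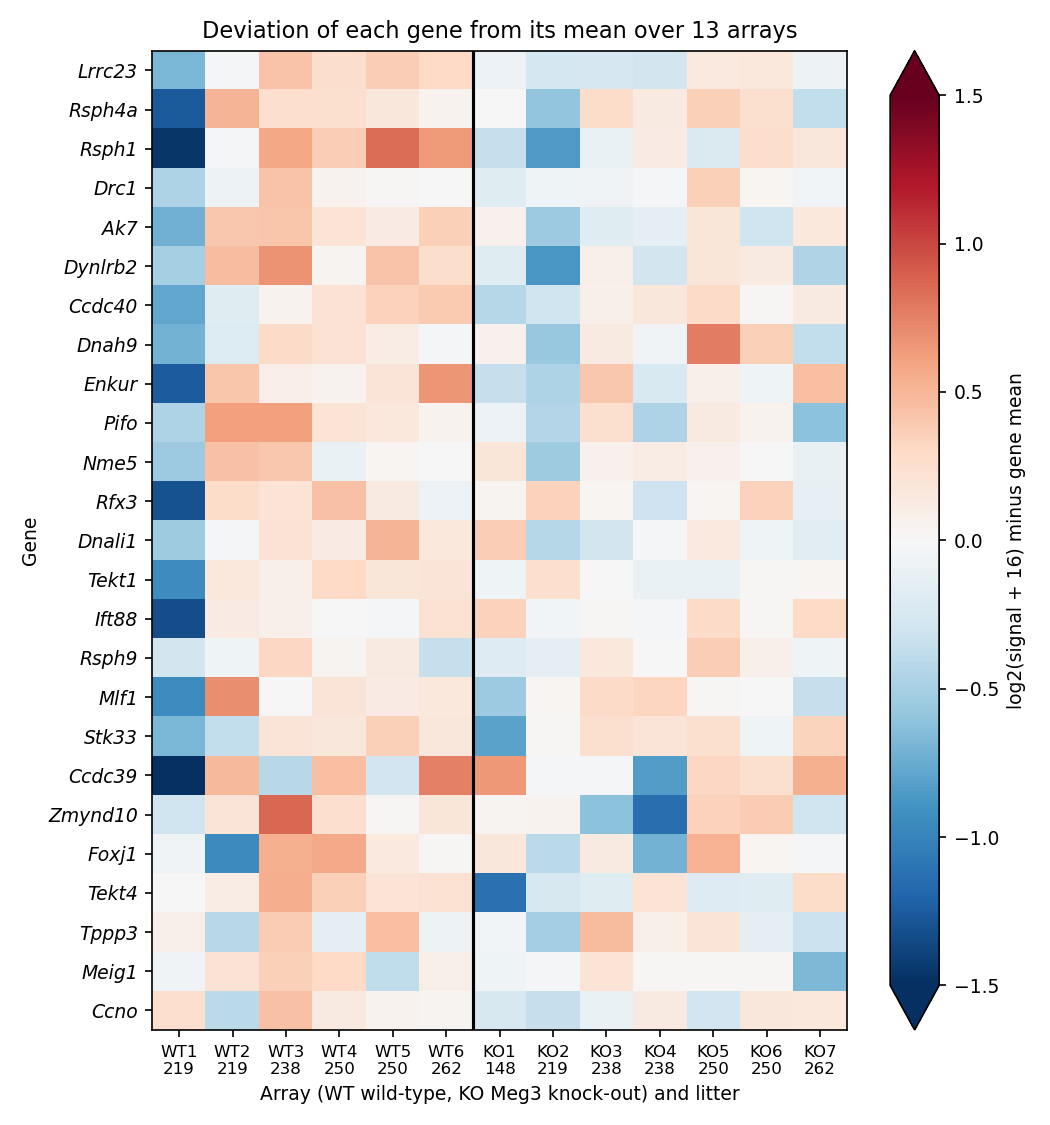
Deviation of each tested motile cilia gene from its mean over the 13 arrays (log2), with genes in rows and arrays in columns by genotype and litter; blue is below the mean, red above, and genes are ordered by how closely they follow the others. The wild-type 1 column is low in most rows, and its mean over the 25 genes is -0.67.

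In wild-type 1, 15 of the 25 genes had their lowest value of all 13 arrays, where 25% of all tested genes did, and 20 of 25 were lower there than in every other wild-type array. The signal of Ccdc39 in wild-type 1 was 37.1, against 129 to 311 in the other wild-type arrays. Ift88, Rfx3, Enkur, Rsph4a and Tekt1 each lay more than 1 log2 unit below the other wild-type mean. Foxj1, at 211, did not stand apart in that embryo, and Tppp3, at 1041, and Ccno, at 87.6, were near the middle or upper end of the wild-type range. Low values in wild-type 1 were thus not shared by the whole list.

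Over the 300 pairs of these genes the Pearson correlation over 13 arrays had a median of 0.44, and 90.3% of pairs were positive, where the median over pairs drawn from all genes was 0.07. The arrays share litters and differ in their mean deviation over all genes, from -0.14 in wild-type 1 to 0.14 in knock-out 5. No test was made. Without wild-type 1 the median was 0.26 and 77.3% of pairs were positive. Without wild-type 1 and knock-out 2, the 2 arrays farthest from the median, it was 0.18 and 68.0% of pairs were positive. With genotype and litter means removed, it was 0.45. Within the 6 wild-type arrays, which hold wild-type 1, it was 0.66, and within the 7 knock-out arrays it was 0.21, with 66.3% of pairs positive and a median of 0.13 over all genes. The correlations were thus lower without wild-type 1 and knock-out 2, both of litter 219, and among the knock-out arrays. Over all 13 arrays the same median was 0.53 within the 19 tested choroid plexus genes and 0.50 within the 3 red cell genes. In the other lists used here it was below 0.44, with 0.31 for genes of dividing cells and 0.21 for primary cilia genes. Varying together was thus not particular to the motile cilia genes.

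Lrrc23 followed the mean of the other genes most closely, with r = 0.90 over 13 arrays and 0.84 without wild-type 1. Dynlrb2 had r = 0.80, and 0.89 without wild-type 1, where it was the closest. Foxj1 had r = 0.35, among the lowest over 13 arrays, and 0.50 without wild-type 1, where it was 13th of 25. Rfx3 went from 0.68 to 0.13 and Tekt1 from 0.68 to 0.08 when that array was left out, so their likeness to the other genes rested on it. The closest pair was Rfx3 with Tekt1 (r = 0.92, and 0.63 without wild-type 1), followed by Dynlrb2 with Pifo (0.89, and 0.88). The second pair kept its correlation without that array.

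The 10 genes outside the list whose pattern was most like the mean of the motile cilia genes were Rbm43, Nrip3, Prkg1, Exoc6b, Pcdh11x, 0610040J01Rik, Asb4, Cdkl2, Ahi1 and Cfap54, with r from 0.93 down to 0.88 over 13 arrays. Cfap54, a central apparatus protein, was the sole one of the 10 on any list used here. All 10 had their lowest value in wild-type 1. Without that array 3 of the 10, Nrip3, 0610040J01Rik and Rbm43, were still among the 10 most alike, and r reached 0.89.

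Further genes of the ciliary pathway came from lists chosen by function. Of 102 other motile cilia genes, 85 had a probe set and 45 were bright enough to test; 0 passed the test (limma, adjusted p under 0.05), 21 had higher and 24 lower means in knock-out brains, and the median was -0.01, or -0.10 with 26 lower without wild-type 1. Ccdc65, of the nexin links, was higher by 0.34 ± 0.14 and Armc2 lower by 0.24 ± 0.12, each with an adjusted p of 1.00 by limma. Of 29 tested genes for multiciliation and basal bodies 0 passed, 16 were higher and 13 lower, with a median of 0.03; without wild-type 1, 17 were lower and the median was -0.05. Deup1, which builds the structures that multiply centrioles, differed by -0.46 ± 0.18 (adjusted p = 1.00 by limma), and Poc1a, a centriole protein, by 0.31 ± 0.14. Of 47 tested genes for intraflagellar transport and primary cilia 0 passed, 32 were higher and 15 lower, with a median of 0.05. Without wild-type 1 the median was -0.06 and 30 were lower. Adcy3, a marker of neuronal primary cilia, differed by 0.23 ± 0.11 and Bbs10 by 0.27 ± 0.15. Of the 10 tested ependymal markers 0 passed, with 5 higher and 5 lower, or 7 lower without wild-type 1. The ependymal examples were Mia at -0.23 ± 0.20 and Sox9 at -0.14 ± 0.16.

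Wild-type 1 held the lowest value of 26 of the 47 primary cilia genes (55.3%), 18 of the 45 other motile cilia genes and 4 of the 10 ependymal markers. It was also lowest for 5 of the 11 neuronal genes (45.5%) and 3 of the 11 genes of dividing cells (27.3%). Over all tested genes this share was 25%. The mean deviation in wild-type 1 was -0.09 for neuronal genes and -0.39 for genes of dividing cells, against -0.14 over all tested genes. In the choroid plexus list it was lowest for 1 of 19 genes (5.26%), and in the radial glia list for 1 of 11. With 25% of all tested genes lowest in that embryo, its low values were not limited to motile cilia genes or to ciliary genes. Their source was not tested.

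**Figure D5:**
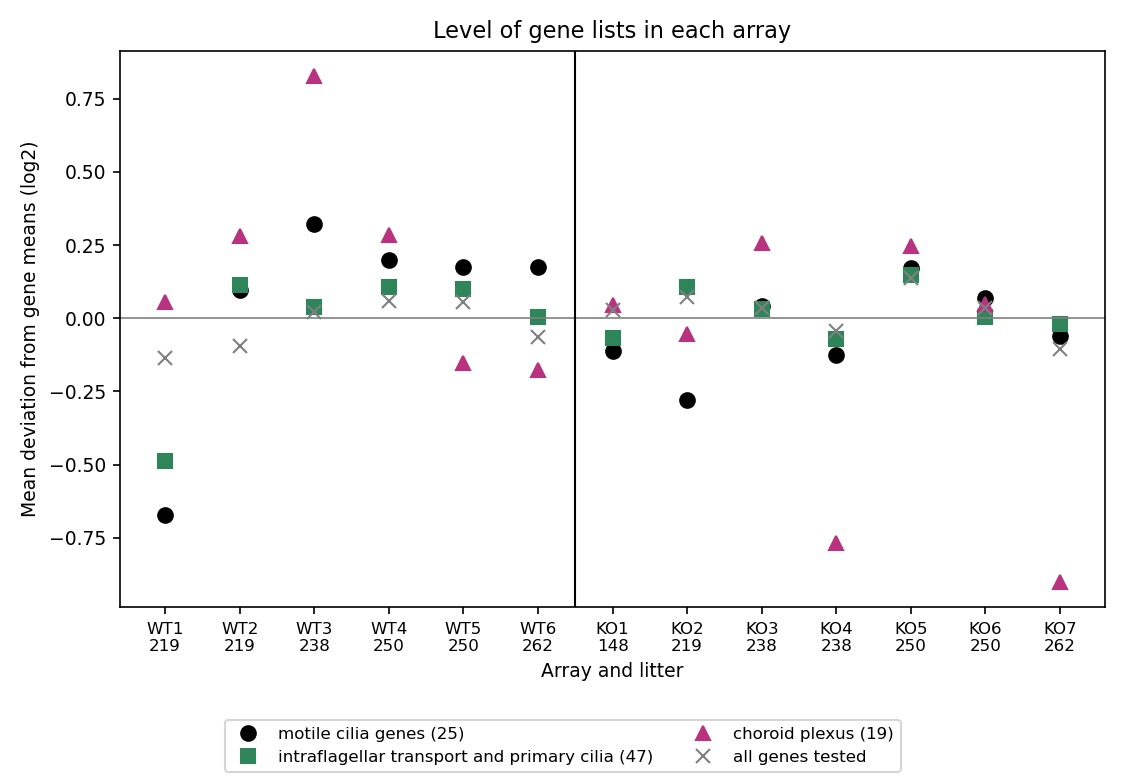
Mean log2 deviation per array from each gene's mean for the 25 motile cilia genes, 47 primary cilia genes, 19 choroid plexus genes and all tested genes, with the litter under each array. Wild-type 1 is low for both ciliary lists (-0.67 and -0.49) and not for the choroid plexus (0.06), whose lowest arrays are knock-out 4 and knock-out 7.

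The choroid plexus, the other ciliated epithelium of the brain, was followed with 19 tested markers. Of these 0 passed the test, 3 had higher and 16 lower means in knock-out brains, and the median difference was -0.37, or -0.35 without wild-type 1. The tight junction gene Cldn2 differed by -0.85 ± 0.39 (adjusted p = 1.00 by limma) and Calml4 by -0.50 ± 0.24. Summed over the list the signal was 33707 to 54371 in wild-type arrays and 18914 to 43596 in knock-out arrays, and no marker of it was at 0. The mean deviation was 0.83 in wild-type 3 and -0.77 and -0.90 in knock-out 4 and knock-out 7. Wild-type 3 was also the highest array for the motile cilia genes. The part of choroid plexus content in the motile cilia differences was not tested.

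Other cell types that a whole brain holds were followed in the same way. Of 11 radial glia genes 8 had higher means in knock-out brains, with Hes1 at 0.40 and Tnc at 0.16, but without wild-type 1 6 of the 11 were lower. Of 11 neuronal genes 8 were higher, with Dcx at 0.16 and Syn1 at -0.24. All 11 tested genes of dividing cells had lower means, with a median of -0.21; Cdk1 differed by -0.24 and Aurka by -0.21. In each of these lists 0 genes had an adjusted p under 0.05 by limma, and their part in the motile cilia differences was not tested. Of 4 tested genes of the subcommissural organ and roof plate, 1 was higher and 3 lower, with Rspo3 at -0.12 and Sspo at 0.13. Of olfactory and airway markers 2 of 12 passed the filter, Omp at 0.08 and Sec14l3 at -0.16. Red cell genes numbered 3 in the test, with Hba-a2 at 0.50 and Alas2 at -0.14, and the genes of absent tissues numbered 3, with Prm1 at 0.65 and Uox at 0.06.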

How the data were processed

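Per the labels' protocols, total RNA of each whole brain was extracted with a lipid tissue kit, turned into biotinylated cRNA and hybridised, 1 embryo per array. The authors deposited 1 table of linear probe set intensities, whose upstream steps (software, probe summary, scaling) are not given in the sources used here. Probe sets were named from the platform annotation of GEO; 34945 carried 1 symbol, 932 several and 9160 none. Litters were read from the embryo labels.

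From these intensities log2(signal + 16) was tested with limma 3.58.1 in R 4.3.3 (lmFit and eBayes, two-sided, Benjamini-Hochberg over all genes, threshold 0.05), with genotype as the only term. A log2 difference on this scale understates changes of dim genes. Probe sets below the 40th percentile of mean log2 signal were left out, and each gene was represented by its brightest probe set, which left 12920 genes. Single values were tested over all 1716 ways of dividing the 13 arrays into 6 and 7. The code was tested on simulated data. Figures were drawn with matplotlib 3.10.9 under Python 3.11.15.

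The motile cilia genes and the other lists were chosen with earlier results of these data known. Values were given in full for the regulators, the 8 genes with the smallest unadjusted p and the 3 with the highest mean signal; from other lists the 2 genes with the smallest p were named, and outside the lists the 10 genes most alike in pattern. Embryos with the same replicate number shared a litter for replicates 2, 3 and 5 and came from different litters for replicates 1, 4 and 6. The correlations of their deviations were -0.26 to 0.40, and the numbers were not taken to pair the arrays. Alternatives covered the pseudocount, filter, scaling, probe set choice, litter, the Actb ratio and leaving out each array. The number of arrays limits the precision.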

Additional observations from a re-analysis of the deposited data

Results flagged for a closer look

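In each genotype and each of the 25 tested genes, the highest and lowest array was compared with its nearest neighbour against the range of the group. Of 50 groups checked, 12 held an array farther from the rest than Dixon's 95% value, where chance flags about 1 in 20. The genes were read on the same arrays and varied together, so 1 array can raise several flags. The 12 flags are therefore not independent. Wild-type 1 was the array in 6 of them, always as the lowest wild-type value: Rfx3 at 690, Rsph4a at 29.1, Tekt1 at 67.6, Enkur at 38.9, Ak7 at 102 and Ift88 at 137. The nearest wild-type values were 1638, 96.0, 153, 119, 195 and 361.

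The other 6 lay among the knock-out arrays. Knock-out 1 was low for Tekt4, at 24.2, and for Stk33, at 35.5, where the next knock-out values were 57.6 and 70.1. Knock-out 2 was high for Tekt1, at 175, and low for Nme5, also at 175. Knock-out 7 was low for Meig1, at 64.3, and knock-out 5 was high for Drc1, at 288. The ratio of 3′ to 5′ Actb signal was 1.81 in knock-out 1, and its part in these values was not tested.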

How the results depend on the processing

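No motile cilia gene had an adjusted p under 0.05 by limma under any alternative, and 3 to 4 genes of all passed when 1 array was left out. Of 786 gene values under the settings listed in the methods, 708 kept their sign. Some of these could not turn, because ordinary least squares gives the same differences as the main fit. Others were counted again, because leaving out litter 148 is the same as leaving out knock-out 1. The share that kept its sign is thus no count of separate checks. The number of genes with lower means, 16 of 25, was 13 to 23 when 1 array was left out, highest without wild-type 1, and 7 of the 11 left by a filter at the 60th percentile. With the replicate block it was 17, with a median of -0.06, and this block changed no call. Signs turned mostly in genes with small differences, and also in Zmynd10 and Ccdc39. Quantile normalisation gave Dnah9 -0.075, Drc1 -0.15, Rsph4a -0.17, Rsph9 -0.0068, Stk33 -0.13 and Tekt1 -0.17. Median centring gave Drc1 -0.078, Rsph4a -0.075, Rsph9 -0.026, Stk33 -0.039 and Tekt1 -0.076. Equal trimmed means gave Drc1 -0.042, Rsph4a -0.031 and Tekt1 -0.037. The litter block gave Dnah9 -0.0056, Drc1 -0.014, Rsph4a -0.10 and Tekt1 -0.0045, and as a random block Rsph4a -0.013. The litter block without wild-type 1, chosen after seeing the data, gave Ccdc39 -0.068, Dnah9 -0.045, Drc1 -0.063, Rfx3 -0.12, Rsph4a -0.26 and Tekt1 -0.15. The replicate block gave Stk33 -0.0036. Leaving out litter 148 gave Ccdc40 0.057, Enkur 0.0037 and Mlf1 0.013; litter 219, Drc1 -0.11, Rfx3 -0.17, Rsph4a -0.072, Stk33 -0.20 and Tekt1 -0.22; litter 238, Foxj1 0.11, Rsph4a -0.015 and Zmynd10 0.034; litter 250, Ccdc40 0.060 and Drc1 -0.046; litter 262, Ccdc40 0.040 and Mlf1 0.0035. The Actb ratio as a covariate gave Enkur 0.010, Mlf1 0.022, Nme5 0.024 and Stk33 -0.044, and leaving out the 2 arrays of high ratio gave Ccdc40 0.019, Enkur 0.082 and Mlf1 0.15. A pseudocount of 64 gave Rsph4a -0.0091 and Tekt1 -0.0021. With 1 array left out in turn, the ranges that crossed 0 were Ccdc39 -0.075 to 0.45, Ccdc40 -0.17 to 0.063, Dnah9 -0.029 to 0.20, Drc1 -0.081 to 0.10, Enkur -0.31 to 0.077, Foxj1 -0.28 to 0.027, Mlf1 -0.27 to 0.060, Nme5 -0.19 to 0.012, Rfx3 -0.15 to 0.20, Rsph4a -0.24 to 0.12, Stk33 -0.083 to 0.19, Tekt1 -0.18 to 0.073. The causes were not tested. Signal in the range of the background genes limits the 8 dim genes and 10 of the 25 tested ones, Tekt4 included, and the spread of 6 and 7 embryos limits all.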
